A study of Homo sapiens with 4 samples.

Results

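Chromosomes 4, 13 and 18 carry few genes for their length, and 4589 of the 57601 peaks in the 4 deposited peak lists lie on them. The members are all peaks whose chromosome name is 4, 13 or 18 (human genome build hg19), with no selection on peak strength. They divide into 2487 of the 30571 Fra-1 peaks called over input DNA, 1686 of the 16133 Fra-1 peaks called over IgG, 414 of the 10836 DDX5 peaks called over input DNA and 2 of the 61 DDX5 peaks called over IgG. Chromosome 4 holds 1255, 888, 199 and 2 of these peaks. Chromosome 13 holds 700 Fra-1 peaks over input, 441 over IgG and 128 DDX5 peaks over input. Chromosome 18 holds 532, 357 and 87.

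The peaks come from chromatin immunoprecipitation followed by sequencing (ChIP-seq) in BT549, an oestrogen receptor alpha-negative line from a breast tumour, grown untreated in RPMI 1640 with 10% FBS. The Fra-1 library was made with antibody R-20 (sc-605), the DDX5 library with ab21696 and the IgG control with normal rabbit IgG (sc-2027), and the fourth library was input DNA that no antibody had touched. Each was sequenced as 1 library, so no value has a replicate and nothing was tested. The 95% intervals below are exact binomial (Clopper-Pearson) intervals, and they cover counting error alone. They treat each peak as independent. Counts per 1 Mb bin had a variance 6.22 times their mean for member Fra-1 peaks over input, and 2.65 times for DDX5. The intervals can thus be too narrow.

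Fra-1, the product of the FOSL1 gene, is a Fos-family protein that pairs with a Jun protein to form the transcription factor AP-1 and then contacts DNA directly, mostly at enhancers. DDX5 is a DEAD-box RNA helicase with roles in splicing and transcription. It is not known to recognise a DNA sequence by itself, and reaches chromatin through RNA or through other proteins. Gene-poor chromosomes tend to lie towards the edge of the nucleus and consist largely of long stretches with few promoters.

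Both antibodies gave fewer peaks per megabase (Mb) on these chromosomes than elsewhere, and the deficit was deeper for DDX5 than for Fra-1. Chromosomes 4, 13 and 18 cover 384 Mb, which is 12.7% of the length of chromosomes 1 to 22 and X, with each chromosome measured to its last peak. They carry 1378 of 19974 protein-coding genes (6.90%) in RefSeq's annotation of assembly GRCh38.p14. Of the Fra-1 list over input they held 8.18% (interval 7.87 to 8.49%), 10.5% of those over IgG (10.0 to 11.0%) and 3.85% of the DDX5 peaks over input (3.49 to 4.23%). These 3 intervals do not overlap, but both Fra-1 lists come from 1 library and the intervals ignore the clustering of peaks. The order of the shares puts DDX5 below the share of genes and both Fra-1 lists above it.

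DDX5 density over input was 1.04 peaks per Mb on chromosome 4, 1.11 on chromosome 13 and 1.12 on chromosome 18, the 3 lowest values among 23 chromosomes. The next lowest were chromosome 2 at 1.47, X at 1.62 and 21 at 1.66, and chromosome 19 was highest at 14.6. Together the 3 chromosomes had 1.08 DDX5 peaks per Mb against 3.91 on the other 20, a ratio of 3.62. Fra-1 density over input was 6.57, 6.08 and 6.83 peaks per Mb on chromosomes 4, 13 and 18. These were the 4th, 2nd and 5th lowest values, with X lowest at 4.998, and the other 20 chromosomes together were 1.63 times denser. The Fra-1 list over IgG was the most even. Its densities of 4.65, 3.83 and 4.58 peaks per Mb stood 10th, 3rd and 9th from the bottom, and the other chromosomes were 1.24 times denser.

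**Figure D1:**
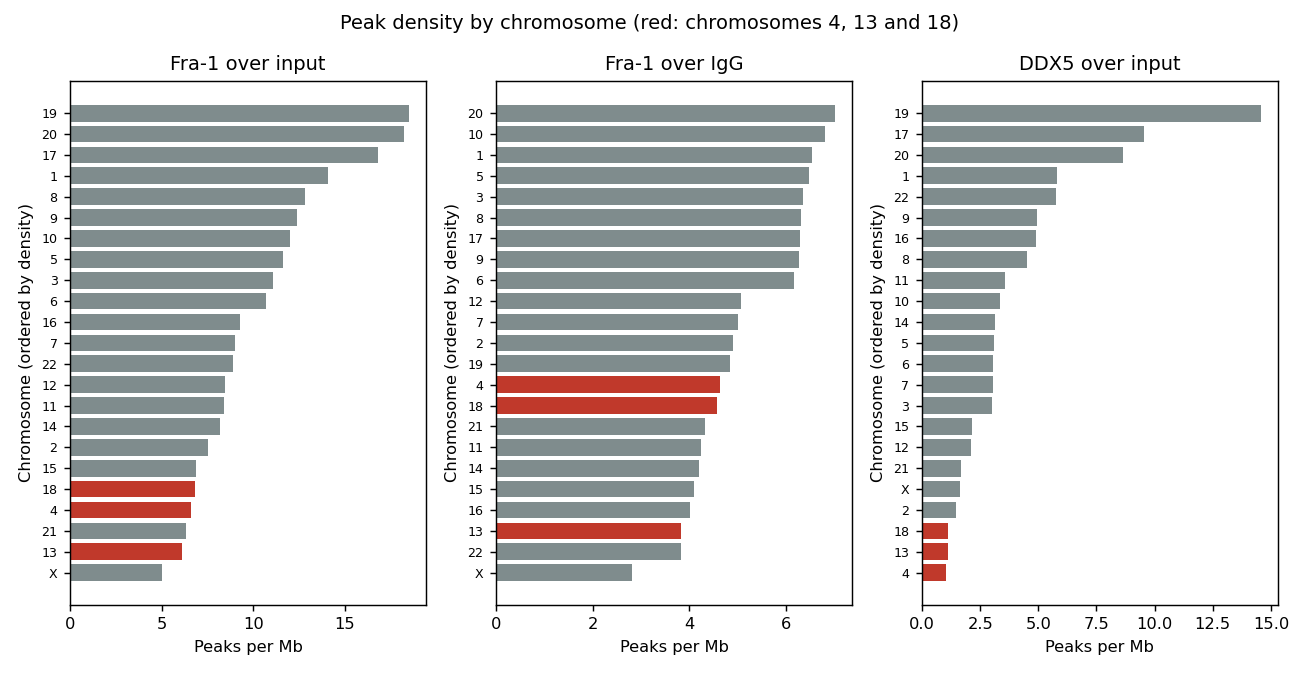
Peaks per Mb (horizontal axis) on each of 23 chromosomes (vertical axis, ordered by density within each panel), for both Fra-1 lists and DDX5 over input; each bar is 1 chromosome and red bars are 4, 13 and 18. The red bars are the 3 shortest for DDX5 (1.04 to 1.12), lie among the 5 shortest for Fra-1 over input, and are spread over places 3 to 10 from the bottom for Fra-1 over IgG.

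Counted per gene instead of per Mb, the antibodies went in opposite directions. The 3 chromosomes had 1.805 Fra-1 peaks over input per protein-coding gene against 1.50 on the other 20 chromosomes, and 1.22 against 0.775 in the list over IgG. For DDX5 the values were 0.300 against 0.556 peaks per gene. Chromosomes 2, X and 21, pooled, had as few DDX5 peaks per gene (0.294), but fewer Fra-1 peaks per gene, 1.24 over input and 0.786 over IgG. Of the 3 gene-poor chromosomes, 13 had the most Fra-1 peaks per gene over input (2.07) and 18 the most over IgG (1.32). The ratio of Fra-1 to DDX5 peaks, both over input, was 6.31 on chromosome 4, 6.11 on chromosome 18 and 5.47 on chromosome 13. Those were the 3 highest ratios of 23, and chromosome 19 had the lowest, 1.27.

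Gene density is a background property of the chromosomes, and the lists followed it unequally. The 3 chromosomes have the 3 lowest gene densities of 23 (2.94 genes per Mb on 13, 3.47 on 18 and 4.03 on 4). Across the 23 chromosomes, DDX5 peaks per Mb and genes per Mb had a Pearson correlation of 0.904 and a Spearman correlation of 0.752. For Fra-1 over input the values were 0.658 and 0.514, and for Fra-1 over IgG 0.04 and 0.01. Without chromosomes 17, 19 and 22, the DDX5 correlations were 0.645 and 0.642, and those of Fra-1 over input 0.410 and 0.402. Chromosomes 19 and 17 have the highest gene densities (24.5 and 14.4 genes per Mb). Chromosomes 11 (9.70) and 16 (9.46) are denser in genes than 22 (8.80) and were kept. All points of a list share 1 ChIP library and 1 control, so these are descriptions of the lists.

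**Figure D2:**
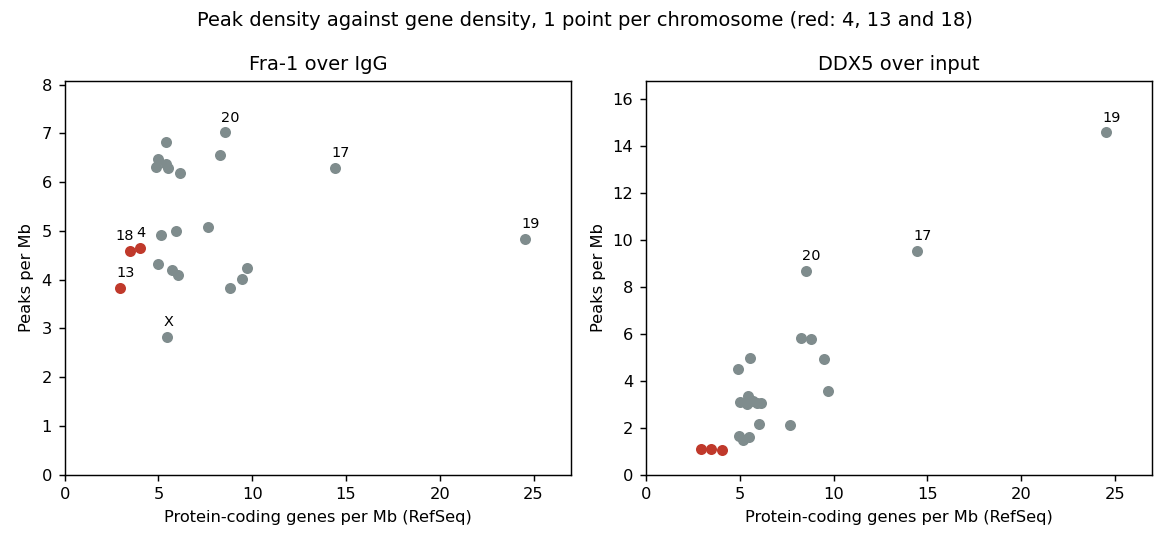
Peaks per Mb (vertical axis) against protein-coding genes per Mb (horizontal axis, RefSeq) in the Fra-1 list over IgG and the DDX5 list over input, 1 point per chromosome, with 4, 13 and 18 in red. DDX5 density climbs with gene density from the red points near 1 peak per Mb to chromosome 19 at 14.6, whereas Fra-1 density over IgG shows no such course.

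The input level also moved with these densities. At each peak the local control level, in fragments, can be worked back from pileup and fold, and its median at the members was 3.87 for Fra-1 over input against 4.65 on the other 20 chromosomes. At DDX5 peaks it was 3.25 against 3.95, and the IgG level at Fra-1 peaks was 4.0003 against 5.60. Across 23 chromosomes, density and median control level had Spearman correlations of 0.695 (Fra-1 over input), 0.625 (Fra-1 over IgG) and 0.484 (DDX5). For DDX5 the Pearson correlation over these 23 was 0.257, where that with gene density was 0.904. Without chromosomes 17, 19 and 22, DDX5 density followed the median input level (Pearson 0.701, Spearman 0.687) at least as closely as it followed gene density. Chromosomes 7, 11, 16, 19 and X had the same median input level at Fra-1 peaks as the 3 gene-poor chromosomes, within 0.01. The level moves in steps that many peaks share, so equal medians do not show equal coverage. At DDX5 peaks their medians ran from 2.92 (16) to 3.57 (X), against 2.92 (18) to 3.43 (4). On chromosomes 4, 13 and 18 DDX5 density was 1.04 to 1.12 peaks per Mb. On those 5 chromosomes it ranged from 1.62 to 14.6. Their Fra-1 densities over input ranged from 4.998 to 18.5 and enclosed the values of chromosomes 4, 13 and 18. The part of copy number and read coverage in the peak counts was not tested.

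Fra-1 peaks on the 3 chromosomes were fewer but stood further above input. Their fold over input had a median of 6.46, with quartiles of 4.66 and 10.8, against a median of 5.31 on the other 20 chromosomes. Chromosome 18 had the highest median of the 23 (6.77), chromosome 4 the second (6.57) and chromosome 13 the 6th (5.97). Of all Fra-1 peaks over input in the genome 29.5% reached 8-fold. On chromosomes 4, 13 and 18 it was 956 of 2487, or 38.4% (interval 36.5 to 40.4%), against 28.9% (28.3 to 29.4%) on the other chromosomes. Chromosomes 2, X and 21, the next sparsest in DDX5, were alike, with a pooled median of 6.32 and 37.2% at 8-fold (35.5 to 39.0%). The pileup, the fragment depth at the summit, differed little, with medians of 31 and 29, while the input level was lower on the 3 chromosomes, as given above.

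Over IgG the median fold of Fra-1 was 7.32 against 6.77, and 42.5% of the members reached 8-fold (40.1 to 44.9%), where 38.8% of the whole list and 42.7% on chromosomes 2, X and 21 did. DDX5 peaks were weak everywhere. Their median fold was 4.29 on the 3 chromosomes and 4.16 on the others, and 10 of 414 members (2.42%, interval 1.16 to 4.40%) reached 8-fold, against 2.28% of the whole list. The interval of the members' share at 8-fold thus includes that of the whole list. Other measures of DDX5 strength differed: the median pileup was 17 on the 3 chromosomes against 20 elsewhere, and the median fold on chromosome 4 alone was 4.35 (interval of the median 4.29 to 4.54). Among DDX5 peaks at or above the median −log10 q, the 3 chromosomes held 3.29% (2.83 to 3.81%).

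The strongest Fra-1 sites on the 3 chromosomes were present over both controls. The 3 leading peaks of each chromosome were 453 to 1136 bp wide, where the median member peak over input spanned 311 bp. On chromosome 4, chr4:1037384-1037840 rose 50.7-fold over input and 18.1-fold over IgG, with a pileup of 203 and an input level of 3.02. It had no DDX5 peak. The next by q-value were chr4:122611882-122612334 (38.2-fold over input, 18.3-fold over IgG) and chr4:122632633-122633415 (32.9-fold and 10.6-fold), in the same 1 Mb bin. Both overlapped a DDX5 peak, of 5.41-fold and 4.74-fold. On chromosome 13 the first was chr13:49323747-49324542 (42.5-fold and 27.4-fold), the 12th by q-value among all 30571 Fra-1 peaks over input and the 3rd in the list over IgG. On chromosome 18 it was chr18:57720897-57721535 (48.6-fold and 12.6-fold). None of the 3 leading Fra-1 peaks over input on chromosome 13 or on chromosome 18 overlapped a DDX5 peak.

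A larger share of the Fra-1 peaks was found again when IgG replaced input as the control. Genome-wide, 50.5% of the peaks that Fra-1 gave over input shared at least 1 bp with a peak it gave over IgG. On chromosomes 4, 13 and 18 it was 1628 of 2487, or 65.5% (63.6 to 67.3%), against 49.3% (48.7 to 49.9%) on the other 20. Chromosome 4 had the highest share of the 23 (68.4%), chromosome 18 the third (64.5%) and chromosome 13 the fifth (61.0%). The other chromosomes ran from 24.98% on chromosome 19 to 66.6% on chromosome 21. Chromosomes 2, X and 21 reached 61.2% (59.4 to 63.0%) when pooled, just below the interval of the 3 gene-poor chromosomes.

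Peak strength and input level differ between the chromosomes, so the share was also taken within bands of fold. Below 4-fold, 15.9% of the member peaks were called again (12.2 to 20.1%) against 7.56% (6.96 to 8.19%) on the other chromosomes. From 4- to 5-fold the shares were 30.9% and 20.9%, and from 5- to 8-fold 68.3% (64.7 to 71.7%) and 59.9% (58.7 to 61.1%). At 8-fold or more nearly all were called again, 98.2% (97.2 to 99.0%) and 97.5% (97.2 to 97.9%), and the intervals overlap. Among peaks with an input level at or under 3.87, the shares were 62.2% and 43.5%, and among those above it 71.0% and 52.9%. The members were thus called again more often in the weak and middle bands and in both classes of input level. The difference was smaller with stricter lists. With both lists limited to at least 8-fold the shares were 67.4% and 61.2%, and at or above the median −log10 q 56.2% and 52.1%, which narrows the difference from 16.1 to 6.19 and 4.07 percentage points.

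**Figure D3:**
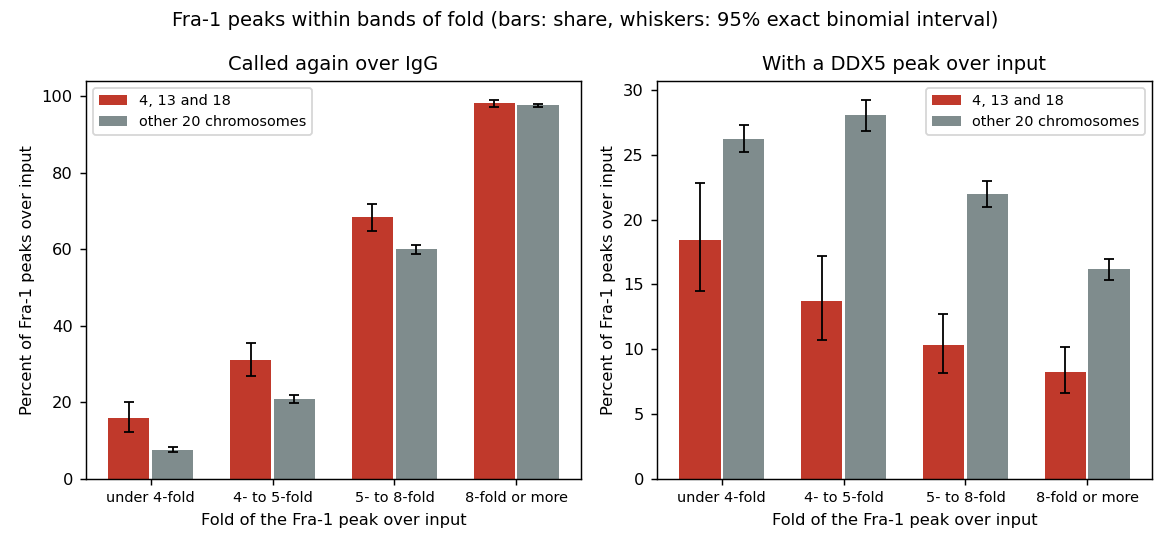
Share of Fra-1 peaks over input (vertical axis, percent) that were called again over IgG (left) or overlapped a DDX5 peak over input (right), within 4 bands of fold (horizontal axis); red bars are chromosomes 4, 13 and 18, grey bars the other 20, and whiskers 95% exact binomial intervals. The red bars are higher on the left below 8-fold (15.9, 30.9 and 68.3%) and lower on the right in every band (18.4 to 8.26%).

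Fra-1 peaks on these chromosomes rarely coincided with DDX5. Genome-wide, 21.8% of the Fra-1 peaks called over input overlapped a DDX5 peak over input. The members' share was 281 of 2487, or 11.3% (10.1 to 12.6%), against 22.6% (22.1 to 23.1%) on the other chromosomes. The 3 chromosomes lay close together, at 11.6% on 4, 11.3% on 13 and 10.5% on 18. Chromosome 21 had a lower share, 9.84%, and chromosome 19 the highest, 43.0%. This share is not independent of the number of DDX5 peaks on a chromosome.

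The deficit held in every band of Fra-1 fold. Below 4-fold 18.4% of the member peaks had a DDX5 peak against 26.3% elsewhere, from 4- to 5-fold 13.7% against 28.0%, from 5- to 8-fold 10.3% against 21.96%, and at 8-fold or more 8.26% against 16.2%. When both lists were limited to peaks of at least 8-fold, the shares were 0.837% (0.362 to 1.64%) and 1.34% (1.10 to 1.62%), whose intervals overlap. Chromosomes 2, X and 21, pooled, had 22.7%, 20.6%, 12.2% and 8.70% in the bands, from the weakest to the strongest. Their intervals overlap those of the members except from 4- to 5-fold (17.3 to 24.4% against 10.7 to 17.2%).

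Fra-1 peaks missing from the list over IgG had DDX5 more often than those called again. Of the 1628 member peaks called again over IgG, 4.98% had a DDX5 peak (3.97 to 6.15%), and of the 859 not called again 23.3% did (20.5 to 26.3%). On the other 20 chromosomes the same shares were 9.92% and 35.0%, and on chromosomes 2, X and 21, pooled, 5.06% and 28.2%. Peaks called again are the stronger ones, and within the band from 5- to 8-fold the members' shares were 2.44% (1.27 to 4.23%) and 27.2% (21.5 to 33.5%). Of the member peaks of at least 8-fold over input, 17 were missing from the list over IgG, and 10 of them had a DDX5 peak. The bin from 74 to 75 Mb on chromosome 4 supplied 6 of these 10, and outside it 4 of 11 had DDX5. Taking the Fra-1 list over IgG as the starting point, 8.68% of all its peaks and 4.57% of the members (77 of 1686, 3.62 to 5.68%) overlapped a DDX5 peak. On chromosomes 2, X and 21, pooled, it was 4.79% (3.86 to 5.86%). Among the members, Fra-1 peaks over input with DDX5 were lower and wider than those without. Their median fold was 5.47 against 6.62 and their median width 441 bp against 304 bp. The other 20 chromosomes showed the same, with 4.75 against 5.53 and 410 bp against 301 bp.

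Seen from DDX5, coincidence with Fra-1 peaks over input was at least as common on the gene-poor chromosomes as elsewhere. Genome-wide, a Fra-1 peak over input overlapped 61.8% of the DDX5 peaks over input. Among the members it was 286 of 414, or 69.1% (64.4 to 73.5%), against 61.5% (60.6 to 62.5%). Chromosome 4 had 74.9% (68.3 to 80.7%), the highest share of the 23. Chromosome 13 at 62.5% (53.5 to 70.9%) and chromosome 18 at 65.5% (54.6 to 75.4%) had intervals that include the value of the other chromosomes. With both lists limited to peaks at or above their median −log10 q, the shares were 39.5% (32.3 to 47.2%) and 35.3% (33.98 to 36.6%), and these intervals overlap. The summits of overlapping peaks lay a median of 68 bp apart, with quartiles of 27.2 and 135 bp.

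The DDX5 peaks without Fra-1 numbered 128, and they were narrow and weak, with a median fold of 4.08 and a median width of 229 bp against 4.37 and 286 bp for those with Fra-1. They stood further from the nearest Fra-1 peak than DDX5-only peaks elsewhere, with a median distance between centres of 16546 bp against 6091 bp, and 62 of them (48.4%) had a Fra-1 centre within 10 kb against 56.8% elsewhere. Fra-1 peaks themselves are sparser on the 3 chromosomes. The leading examples by q-value were chr4:77996635-77996933 (5.63-fold), chr13:98086153-98086648 (6.11-fold) and chr18:11851199-11851445 (4.73-fold). On the other chromosomes, too, DDX5 peaks without Fra-1 were weaker and narrower, with medians of 3.97-fold and 247 bp against 4.35-fold and 325 bp.

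Along the chromosomes the peaks were unevenly spread. Cut into 1 Mb bins, chromosomes 4, 13 and 18 gave 386 bins, of which 309 held a peak in any list. Fra-1 peaks over input were absent from 81 bins (21.0%), Fra-1 peaks over IgG from 109 (28.2%) and DDX5 peaks from 219 (56.7%). Counted from the first peak of each of the 3 chromosomes, the empty shares were 16.9%, 24.5% and 54.5%. With all bins counted, they were 14.5%, 22.5% and 35.2% on the other 20 chromosomes. Chromosomes 2, X and 21, pooled, had 19.8%, 29.2% and 52.3%. A bin of chromosomes 4, 13 and 18 had a median of 5 Fra-1 peaks over input and 0 DDX5 peaks. On the other 20 chromosomes the medians were 8 and 1. The 39 fullest bins, about 10% of them, held 30.6% of the Fra-1 peaks over input, 31.9% of those over IgG and 47.3% of the DDX5 peaks. The same share of bins elsewhere held slightly more, 31.4%, 32.9% and 53.5%, so the members were no more concentrated than other peaks. Bins with 10 or more DDX5 peaks numbered 283 (10.6%) on the other chromosomes and 1 on these 3.

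**Figure D4:**
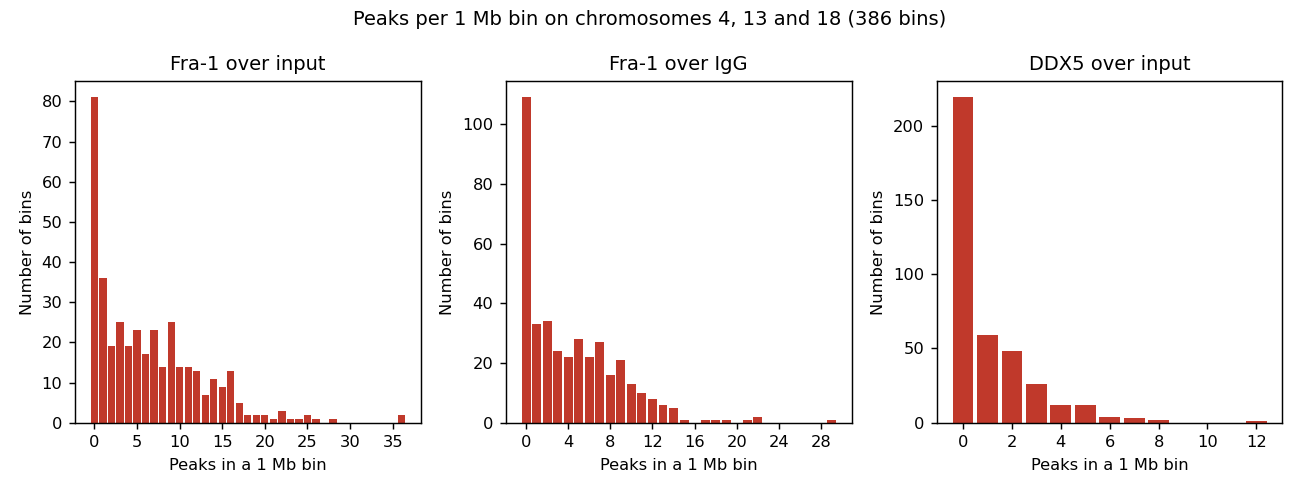
Number of 1 Mb bins (vertical axis) by the number of peaks they hold (horizontal axis) on chromosomes 4, 13 and 18, for both Fra-1 lists and DDX5 over input. The bars at 0 stand for 81, 109 and 219 of the 386 bins, and the single DDX5 bin with 12 peaks stands clear of the next, with 8.

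Over the 309 bins with a peak, counts in the 2 Fra-1 lists had a Spearman correlation of 0.914, counts of Fra-1 and DDX5 over input 0.528, and counts of Fra-1 over IgG and of DDX5 0.331. On the other chromosomes these were 0.826, 0.694 and 0.346. The first pair shares the Fra-1 library and the second shares the input library, and no test was made of them. The lower coupling of Fra-1 and DDX5 counts over input was also seen on chromosomes 2, X and 21, at 0.556.

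Per 1 Mb bin that held any peak, which leaves out the empty stretches, the 3 chromosomes had 8.05 Fra-1 peaks over input against 12.1 elsewhere, 5.46 against 6.26 over IgG, and 1.34 DDX5 peaks against 4.50. As a ratio, the difference was widest for DDX5 also with empty stretches left out. The longest empty stretch was the start of chromosome 13, where no list had a peak in the first 19 bins and the first peak began at position 19320345. Chromosome 13 is acrocentric, with a short arm made up mostly of repeats. On chromosome 4 the widest gap between neighbouring peaks ran from 58368332 to 66489260 (8.12 Mb) and the next from 133266536 to 138187737 (4.92 Mb). On chromosome 18 the widest ran from 15134791 to 18970965 (3.84 Mb).

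The bin from 74 to 75 Mb was the fullest on chromosome 4 for Fra-1 and DDX5 over input, and tied with the bin from 157 to 158 Mb for Fra-1 over IgG. It held 36 Fra-1 peaks over input, 22 over IgG, 12 DDX5 peaks over input and both of the DDX5 peaks over IgG. The median fold of its Fra-1 peaks over input was 11.4, the highest was 25.7, and 23 of the 36 reached 8-fold. The next on chromosome 4 were the bins from 157 to 158 Mb (28 Fra-1 peaks over input and 2 DDX5 peaks) and from 169 to 170 Mb (26 and 6). On chromosome 18 the bin from 20 to 21 Mb also held 36 Fra-1 peaks over input, of which 29 were called again over IgG, but had 2 DDX5 peaks. On chromosome 13 the bin from 45 to 46 Mb led with 25 Fra-1 peaks over input, 11 of them called again, and 8 DDX5 peaks. The bin from 43 to 44 Mb had 22 and 17, with 1 DDX5 peak. The 2 bins with 36 Fra-1 peaks each thus held 12 and 2 DDX5 peaks.

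The bin from 74 to 75 Mb held 6 of the 10 member DDX5 peaks of at least 8-fold, all within 230 kb (chr4:74734967-74965212). Their folds were 18.9, 18.5, 17.4, 16.8, 12.9 and 8.10, at input levels between 3.43 and 5.15, where the median over the members was 3.25. The other 4 had folds between 8.15 and 8.81, and lay at chr4:123747880-123749007, chr4:185394088-185395322, chr13:52026850-52027287 and chr18:12883986-12884275. Each of the 10 had a Fra-1 peak over input across it, and at 1 of them Fra-1 also had a peak over IgG. At the 6 sites the Fra-1 peaks were 8.52- to 13.5-fold over input. No gene was assigned to these positions, since no hg19 annotation was used.

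Both DDX5 peaks over IgG fell at the ends of that 230 kb stretch. The peak chr4:74964489-74964841 had a DDX5 pileup of 85.8 and an IgG level of 37.0, which is 2.28-fold over IgG, whereas the DDX5 peak over input with the same summit was 18.9-fold at an input level of 3.60. The peak chr4:74735177-74735390 had a pileup of 103 and an IgG level of 57.0, 1.79-fold over IgG, against 18.5-fold over an input level of 4.63. At these 2 summits the IgG level was above the highest IgG level at any Fra-1 member peak over IgG, 19.9995. A Fra-1 peak over input covered each site (13.5-fold and 11.4-fold). In the whole DDX5 list over input 0.508% of the peaks were found over IgG, and the members' share was 2 of 414 (0.483%). On chromosomes 13 and 18 it was 0 of 215, and 3 counts of that total, taken as the limit that a count of 0 allows, are a share of 1.40%.

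Elsewhere in the same bin the 2 antibodies differed. At chr4:74570355-74570671 DDX5 was 4.47-fold over input, within a Fra-1 peak of 22.02-fold over input and 8.69-fold over IgG. At chr4:74545564-74545814 it was 4.74-fold, within a Fra-1 peak of 20.4-fold and 9.84-fold. The strongest Fra-1 sites of the bin that had DDX5 thus carried weak DDX5 peaks, and the strongest DDX5 sites carried Fra-1 peaks of middle height. Without the bin, the share of DDX5 peaks with Fra-1 was 68.4% and the share of Fra-1 peaks with DDX5 11.0%.

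Over all 286 overlapping pairs, the log2 folds of Fra-1 and DDX5 had a Pearson correlation of 0.18 and a Spearman correlation of 0.20. The pairs were also described by whether the Fra-1 peak was called over IgG, a split that largely follows Fra-1 fold itself, so the Fra-1 medians below are set by it. In 81 pairs the Fra-1 peak was also called over IgG; its median fold over input was 17.01 and that of the DDX5 peak 4.46, and DDX5 had the higher fold in 1 pair. In the other 205 pairs the Fra-1 median was 4.72 and the DDX5 median 4.35, and DDX5 had the higher fold in 94. Over the 81 pairs the log2 folds had a Pearson correlation of -0.004 and a Spearman correlation of 0.07. Over the 205 pairs they were 0.56 and 0.36, and 0.39 and 0.31 without the bin from 74 to 75 Mb. Both folds of a pair are taken over the same input library, though not at an identical level, and that part of the correlation was not tested.

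**Figure D5:**
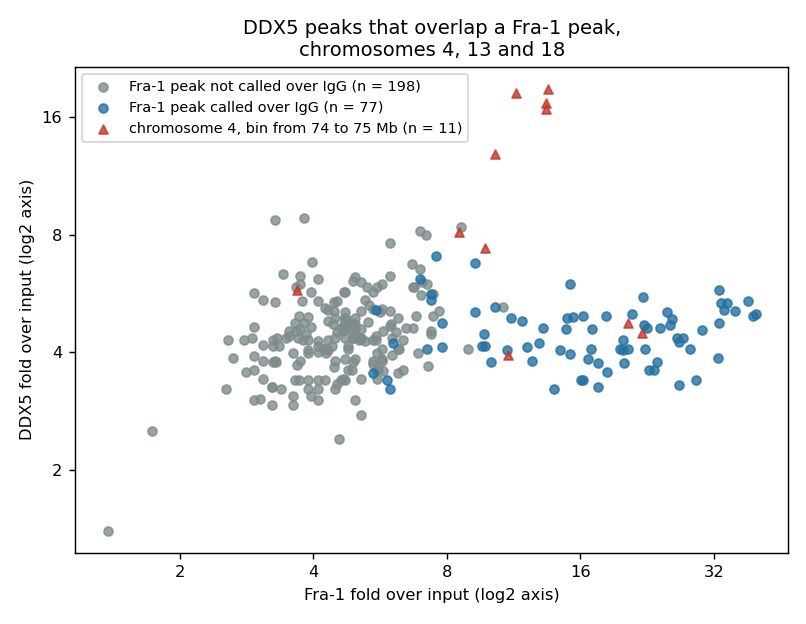
DDX5 fold over input (vertical axis, log2 scale) against Fra-1 fold over input (horizontal axis, log2 scale) for the 286 DDX5 peaks on chromosomes 4, 13 and 18 that overlap a Fra-1 peak; each point is 1 pair, blue where the Fra-1 peak was also called over IgG, grey where it was not, and red triangles for the bin from 74 to 75 Mb on chromosome 4. Blue points spread to high Fra-1 fold (median 17.01) at a DDX5 fold near 4.46, and 5 triangles lie above all other points, at DDX5 folds from 12.9 to 18.9.

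The best common sites by summed rank paired a tall Fra-1 peak with a small DDX5 peak. On chromosome 4 chr4:169508333-169509517 had Fra-1 at 32.9-fold over input and 20.5-fold over IgG, with DDX5 at 5.78-fold and summits 103 bp apart. On chromosome 13 chr13:111522161-111523006 had 39.2-fold, 18.8-fold and, for DDX5, 4.96-fold, with summits 22 bp apart. On chromosome 18 chr18:52443376-52444224 had 33.7-fold, 13.4-fold and 5.14-fold, with summits 27 bp apart. At none of these 3 was DDX5 called over IgG.

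Neighbouring peaks formed fewer and smaller groups for DDX5 than on the other chromosomes. Peaks were joined when no more than 12.5 kb separated them. Of the member DDX5 peaks 67.6% stood alone against 45.4% elsewhere, and 2 groups had 5 or more peaks. For Fra-1 over input 45.2% stood alone against 37.9%. A fixed joining distance leaves more peaks alone in a sparser list, so these shares are not independent of density. DDX5 density was 1.08 peaks per Mb against 3.91, and grouping beyond that difference was not tested. The largest DDX5 group, of 6 peaks over 10.1 kb at chr13:45905346-45915436, had folds up to 4.75, and 2 of its 6 peaks overlapped Fra-1. The largest Fra-1 groups over input had 9 peaks each, at chr13:43382841-43407297 and chr13:93878903-93914463, and 1 peak in each had DDX5.

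DDX5 peaks were denser at the end of the long arm of chromosome 13 than over that chromosome as a whole. This window was looked at after the values had been seen. Its last 5 Mb are 4.34% of its length and held 20 of its 128 DDX5 peaks (15.6%, interval 9.81 to 23.1%). The same window held 5.29% of its Fra-1 peaks over input (3.75 to 7.21%) and 3.85% of those over IgG (2.26 to 6.10%). A high DDX5 share in the last 5 Mb was not particular to chromosome 13. On the other 20 chromosomes that window is 3.78% of the length and held 11.9% of the DDX5 peaks (11.3 to 12.6%). On chromosomes 2, X and 21, pooled, it is 3.36% and held 21.0% (18.1 to 24.3%). Over both ends of all 3 chromosomes, 7.81% of their length, lay 12.6% of the DDX5 peaks and 7.20% of the Fra-1 peaks over input. These ends include the first 5 Mb of chromosome 13, which hold no peak in any list. On the other 20 chromosomes the shares of peaks within 5 Mb of an end were larger, 19.7% and 9.52%, in 7.55% of the length.

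A few member peaks lay where the input itself was very high. At an input level of 20 or more there were 4 Fra-1 and 7 DDX5 peaks over input, all close to an end of chromosome 4 or 18 or near 49 Mb of chromosome 4. The DDX5 peak chr4:49151486-49151700 had a pileup of 194 over an input level of 111, a fold of 1.75. It ranked second by q-value among the DDX5 peaks of chromosome 4 that had no Fra-1 peak. The folds of these 11 peaks lay between 1.38 and 2.51.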

How the data were processed

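Peaks of 1 Fra-1 and 1 DDX5 ChIP library, each over input and over IgG, were taken from the authors' 4 lists. Per the submitters' processing notes, CASAVA 1.8, Bowtie 0.12.9, HOMER and hg19 were used. The peak caller is not given in the sources used here. Per the file headers, the deposited pileup is a signal (fragment depth at the summit) and the fold enrichment a ratio. The second unnamed column of the deposited lists was read as −log10 q. Read depth is unknown. The control level was computed from pileup and fold, and is censored at the caller's genome-wide background.

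Overlap means at least 1 bp. Bins were counted by peak centre. The naming rule took, on each chromosome, the 3 peaks of highest −log10 q in each Fra-1 list and in DDX5 over input. It also took the best 2 common and 2 DDX5-only sites, the DDX5 peaks over IgG and the fullest bins. The text names only a part of these. The 10 DDX5 peaks of at least 8-fold and the peaks of high input level were added after their values were seen. So were the pairs in the fullest bin. Members, comparisons and this rule were chosen with earlier results of these data known. Gene counts are RefSeq GRCh38.p14; no hg19 sequence or annotation was used, so no peak was given a gene. Alternatives were stricter thresholds, other overlap rules and bin sizes, and single chromosomes. Overlap code was tested on simulated data. The tools were matplotlib 3.10.9, scipy 1.17.1, pandas 2.3.3 and numpy 2.4.6 under Python 3.11.15.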

Additional observations from a re-analysis of the deposited data

How the results depend on the processing

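Of 61 alternative values for 12 results, 23 stayed within the 95% interval of the value reported and 38 moved outside it. No paired analysis was possible because each antibody and each control has 1 library. With peaks of at least 8-fold only, the 3 chromosomes held 10.6% of the Fra-1 list over input and 11.5% of that over IgG. Of the Fra-1 peaks 67.4% were called again (61.2% elsewhere) and 0.837% had a DDX5 peak (1.34% elsewhere). Of only 10 DDX5 peaks, 80.0% (44.4 to 97.5%) had a Fra-1 peak, against 43.9% elsewhere (37.5 to 50.5%). The bin from 74 to 75 Mb on chromosome 4 held 6 of these 10. With peaks at or above the median −log10 q, they held 9.50% of the Fra-1 and 3.29% of the DDX5 peaks over input, and the shares called again, with DDX5 and with Fra-1 were 56.2%, 4.84% and 39.5% (52.1%, 12.9% and 35.3% elsewhere). With centres within 100 bp these shares were 61.7%, 7.36% and 44.2%, and with an overlap of at least 50% the share of DDX5 peaks with Fra-1 was 64.3%. Starting from Fra-1 over IgG, 4.57% had DDX5.

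Chromosome 4 alone held 4.13% (Fra-1 over input), 5.52% (over IgG) and 1.85% (DDX5) of the lists, chromosome 13 alone 2.30%, 2.74% and 1.19%, and chromosome 18 alone 1.75%, 2.22% and 0.808%. These are smaller because each is a single chromosome. The share called again was 68.4% on chromosome 4 and 61.0% on 13, and the share of DDX5 peaks with Fra-1 74.9% and 62.5%. Median Fra-1 fold over input was 5.97 on chromosome 13 and 6.77 on 18, and median DDX5 fold 4.14 on 13. Empty bins of 500 kb made up 32.5%, 40.8% and 71.2% (Fra-1 over input, over IgG, DDX5), and empty bins of 2 Mb 11.4%, 14.0% and 40.9%, as bin size alone dictates; counted from the first peak, 16.9% of the 1 Mb bins had no Fra-1 peak over input. Other causes were not tested. Fold, width and overlap rest on unknown read depth, so a weak peak that was not called is not an absent one.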
